A study of Mus musculus with 24 samples.

Results

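Type 1 conventional dendritic cells are known by a small set of transcripts, and 10 of these, Xcr1, Clec9a, Batf3, Irf8, Id2, Wdfy4, Cadm1, Zbtb46, Itgae and Naaa, were followed here by symbol among the 55376 genes counted in each library. The 10 genes were picked because they had already been seen to be higher in MPP3 cells of young TTPΔARE mice. Their values in MPP3 cells are therefore given as a description, without p-values, and counts of called genes there are no test of them. The place of these cells above the other groups follows from that choice. Differences between HSC groups were not its basis, and are tested.

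Type 1 dendritic cells take up dying cells and present their antigens to CD8 T cells, a process named cross-presentation. They arise from marrow progenitors under the transcription factors IRF8 and BATF3, with ID2 holding back E proteins and ZBTB46 marking the classical dendritic lineage. Mature cells display the chemokine receptor XCR1 and the dead-cell receptor CLEC9A. Hematopoietic stem cells (HSCs) and multipotent progenitors type 3 (MPP3, a myeloid-biased progenitor) lie upstream of these cells.

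The study asked how raised levels of tristetraprolin (TTP, encoded by Zfp36), a protein that binds AU-rich sequences and speeds mRNA decay, alter primitive marrow cells. Bulk mRNA-seq was available for 24 libraries of untreated male mice in 6 groups. HSCs, sorted as LSK CD34-Flk2-CD150+ marrow cells, came from young WT (Y-WT, n = 4), young TTPΔARE (Y-TTPΔARE, n = 4), middle-aged WT (M-WT, n = 5) and middle-aged TTPΔARE (M-TTPΔARE, n = 3) mice. MPP3 cells came from Y-WT (n = 4) and Y-TTPΔARE (n = 4) mice. TTPΔARE mice are homozygous for removal of an AU-rich element from the Zfp36 3′ UTR, and WT mice were their littermates. The labels do not tell whether the libraries of a group came from separate mice, so that p-values measure the spread between these libraries, which may be technical. The MPP3 samples carry that name as their cell type, while their source field names HSCs.

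Total counts per library lay between 24261371 and 39934554. Values are given as CPM, the share of a library's total that falls on a gene, with totals scaled between libraries by TMM factors. Those factors lay between 0.7306 and 1.1476, the lowest being that of Y-TTPΔARE MPP3 replicate 4. Zfp36 was higher in TTPΔARE than in WT libraries without overlap in all 3 cell and age settings, at 29.4 ± 7.30 CPM in Y-WT MPP3 and 105 ± 19.2 CPM in Y-TTPΔARE MPP3 (SD, n = 4 each). The labelled cell types were checked on marker lists. Summed over 9 granulocyte-monocyte progenitor genes, MPP3 libraries reached 1912 to 4047 CPM and HSC libraries 291 to 532 CPM. Summed over 10 HSC genes, MPP3 libraries lay at 1225 to 1863 CPM and HSC libraries at 2352 to 3687 CPM.

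In MPP3 cells, the log2 fold changes of Y-TTPΔARE over Y-WT lay between 0.30 (Wdfy4) and 5.52 (Xcr1). The median log2 fold change of all 10 genes was 3.57, beside 0 over all 12850 genes over the limit on level given next. A gene was called when its Benjamini-Hochberg adjusted p in edgeR's quasi-likelihood test was under 0.05, its fold change over 1.2 and its average log2 CPM over 1.5. All 10 passed the filter on low counts and the limit on level. By this rule 9 of the 10 were called higher, Wdfy4 being the exception, where 2.33% of the 12850 genes were. Since the 10 were picked on this contrast, nothing is read from the difference. The same 9 had groups without overlap, where 6.64% of genes did in that direction and 4.89% in the other. The count was 9 with replicate 2 of either genotype left out and 8 with any other library left out, replicate 4 of Y-TTPΔARE included, Cadm1 then being the additional gene not called. In bulk libraries, a larger number of cells of a type and more RNA per cell cannot be told apart.

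**Figure D1:**
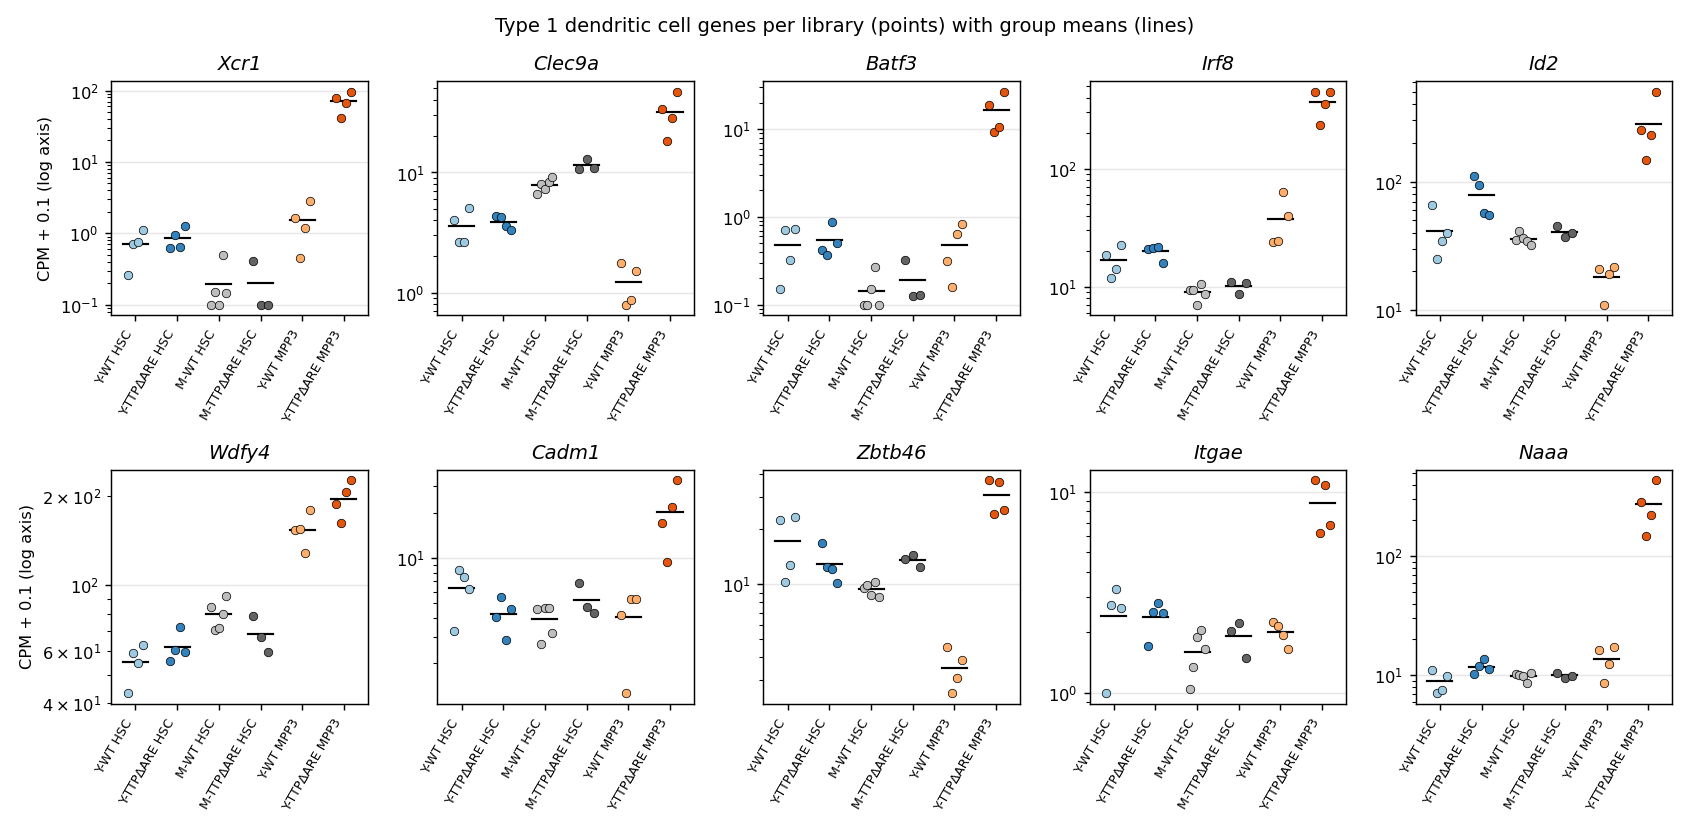
CPM + 0.1 on a log axis of each of the 10 genes, with 1 point per library and a line at the mean of each of the 6 groups. In 9 panels all 4 Y-TTPΔARE MPP3 libraries lie above every other library, whereas for Wdfy4 they overlap with Y-WT MPP3. The genes were picked as higher in Y-TTPΔARE MPP3.

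Among the transcription factors, Irf8 (GRCm38 chr8:120736358-120756694, plus strand), a factor that sets the type 1 dendritic fate, was the most abundant in CPM. Its level was 23.9, 24.3, 63.0 and 39.9 CPM in Y-WT MPP3 replicates 1 to 4 and 443, 233, 354 and 449 CPM in the Y-TTPΔARE replicates. The groups did not overlap, and the log2 fold change was 3.25 ± 0.34 (SE). Id2 (chr12:25093799-25097140, minus strand), an inhibitor of E proteins that all classical dendritic cells use, stood at 20.8, 10.9, 19.0 and 21.4 CPM in Y-WT and at 251, 148, 232 and 501 CPM in Y-TTPΔARE. Replicate 4 was the highest library of its group, the groups did not overlap, and the log2 fold change was 3.89 ± 0.34.

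Batf3 (chr1:191097847-191108945, plus strand), a leucine zipper factor that type 1 dendritic cells need to persist, was close to 0 in WT, at 0.211, 0.0578, 0.536 and 0.726 CPM, that is 2 to 28 counts per library. It reached 18.9, 9.08, 10.4 and 26.5 CPM in Y-TTPΔARE, 289 to 619 counts. The log2 fold change was 5.28 ± 0.59. Zbtb46 (chr2:181387762-181459426, minus strand), a zinc finger factor of classical dendritic cells, was at 4.44, 2.43, 2.98 and 3.76 CPM in Y-WT MPP3 and at 36.9, 24.2, 36.0 and 25.5 CPM in Y-TTPΔARE, with a log2 fold change of 3.15 ± 0.26. For Zbtb46, replicate 4 was among the lower libraries of its group.

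Because TTP acts on AU-rich sites, the 7-base core TATTTAT (the DNA form of its preferred RNA site) was searched on the sense strand in the longest 3′ UTR annotated for each gene in GENCODE M21. It was present in 3 of the 10 genes, all of them transcription factors, and in 27.6% of 21020 genes with a 3′ UTR. The 4 sites are shown 5′ to 3′ on the strand of the gene, since they are the places in these transcripts where the letters of a TTP site occur, with the core in capitals:
Irf8, chr8:120756616-120756638: tgtccaaaTATTTATttttgtat
Id2, chr12:25094358-25094380: gataccgtTATTTATgagagact
Id2, chr12:25094109-25094131: tgtgtataTATTTATatataaat
Zbtb46, chr2:181388126-181388148: ttcttaaaTATTTATttttttca
These 3 transcripts were each higher in Y-TTPΔARE MPP3. So were Xcr1, Clec9a, Batf3, Cadm1, Itgae and Naaa, which held no such site, while Wdfy4, also without a site, was not called. Binding of TTP to the sites was not measured.

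IRF8 and BATF3 are known to bind DNA together at composite elements. RefSeq promoters (GRCm38.p6) were matched for 8 of the 10 genes, 9 promoters in all, and were searched on both strands for the AP-1 site TGANTCA, the AP-1 and IRF composite elements AICE1 and AICE2, the ETS and IRF composite element EICE and the core of the interferon element ISRE. Only the Zbtb46 promoter held a match, an AP-1 site that lies inside an AICE2 match on the reverse strand, shown with the matched letters in capitals:
Zbtb46, chr2:181424430-181424458: catttacctTGACTCATTTCacagcaaat
AP-1 letters were present in 7.81% and AICE2 letters in 0.125% of 32851 promoters of the same length. Each promoter was a short window, that of Zbtb46 being chr2:181424339-181424638, inside the gene span given above. A match or its absence describes the letters in such a window only.

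Among the surface receptors, Xcr1 (chr9:123852315-123862029, minus strand), the receptor for the chemokine XCL1, was at 1.55, 0.347, 1.07 and 2.77 CPM in Y-WT MPP3. It was at 77.9, 41.1, 66.5 and 96.3 CPM in Y-TTPΔARE, a log2 fold change of 5.52 ± 0.52, the largest of the 10. Clec9a (chr6:129408862-129424763, plus strand), a lectin that senses actin of dead cells, went from 1.66, 0.693, 0.770 and 1.40 CPM to 33.7, 18.0, 28.4 and 46.9 CPM, a log2 fold change of 4.74 ± 0.35. Both receptors had the same order of the 4 Y-TTPΔARE libraries, with replicate 4 highest and replicate 2 lowest.

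Cadm1 (chr9:47530173-47857637, plus strand), an adhesion molecule used to mark type 1 dendritic cells across species, was at 4.09, 1.16, 5.29 and 5.23 CPM in Y-WT MPP3 and 17.1, 9.32, 21.9 and 32.8 CPM in Y-TTPΔARE (log2 fold change 2.29 ± 0.46). Itgae (chr11:73090583-73147446, plus strand), the integrin chain CD103 of tissue type 1 dendritic cells, had the lowest Y-TTPΔARE level of the 10 genes in CPM. It was at 2.15, 2.05, 1.84 and 1.55 CPM in Y-WT and 11.3, 6.16, 10.7 and 6.76 CPM in Y-TTPΔARE, with a log2 fold change of 2.19 ± 0.28. These were the smallest log2 fold changes of the 9 genes called.

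Naaa (chr5:92257659-92278170, minus strand), a lysosomal amidase that is abundant in type 1 dendritic cells, was at 16.3, 8.44, 12.4 and 17.3 CPM in Y-WT MPP3 and 286, 147, 222 and 434 CPM in Y-TTPΔARE, with a log2 fold change of 4.24 ± 0.33. Wdfy4 (chr14:32959547-33185508, minus strand), a large protein that cross-presentation requires, differed from the others. It was already at 153, 154, 128 and 179 CPM in Y-WT MPP3 and was at 188, 162, 206 and 225 CPM in Y-TTPΔARE. The groups overlapped, with replicate 2 of Y-TTPΔARE under replicate 4 of Y-WT, and the log2 fold change was 0.30 ± 0.15. The set chosen as higher in Y-TTPΔARE MPP3 thus held a member whose groups overlapped.

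Levels can be compared between genes per kilobase of exon. In Y-TTPΔARE MPP3 the order was Id2 (116 ± 62.4 CPM per kilobase, SD, n = 4), Naaa (73.1 ± 32.7), Irf8 (52.4 ± 14.3), Wdfy4 (18.5 ± 2.57), Xcr1 (15.8 ± 5.18), Batf3 (10.2 ± 5.07), Clec9a (9.64 ± 3.65), Zbtb46 (3.60 ± 0.789), Cadm1 (1.94 ± 0.939) and Itgae (1.91 ± 0.577). In Y-WT MPP3, Wdfy4 came first at 14.6 ± 1.98 CPM per kilobase, followed by Id2 at 7.40 ± 2.00, Irf8 at 5.36 ± 2.61 and Naaa at 3.66 ± 1.09, and each of the other 6 was under 1.

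Whether the genes scaled together was read in the 4 Y-TTPΔARE MPP3 libraries. Replicate 2 was the lowest library for all 10 genes. Replicate 4 was the highest for 8 genes and replicate 1 for Zbtb46 and Itgae. The summed levels of 6 of the 12 other gene lists had the same lowest and highest library, among them MHC class II genes (5860 and 12685 CPM), granulocyte-monocyte progenitor genes (2328 and 4047 CPM), monocyte and macrophage genes (807 and 1480 CPM) and T- and NK-cell genes (272 and 646 CPM). Such a sum can rest largely on a single gene. Nkg7 held 188 and 564 CPM of the T- and NK-cell sums in replicates 2 and 4. Lyz2 held 511 and 974 CPM of the monocyte and macrophage sums there. Cd3e had the opposite order, at 2.56 and 0.0428 CPM. Replicate 4 also had the lowest TMM factor. The part of this factor and of single genes in the order of the libraries was not tested. Leaving Wdfy4 aside, the level of replicate 2 above the WT mean was 40.7% to 62.2% of that in replicate 1 (median 49.0%), so that 9 genes fell to a similar share in the same library. In replicate 3 the share was between 54.3% (Batf3) and 136% (Cadm1). It was between 51.6% (Itgae) and 218% (Cadm1) in replicate 4, so that both ranges were wider than that of replicate 2.

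The ratio of counts within a library needs no scaling factor. Per Xcr1 count, Clec9a had 0.426 to 0.487 counts over the 4 libraries, a coefficient of variation (CV) of 6.23% where counting error alone gives 4.16%. Irf8 had 4.66 to 5.68 counts per Xcr1 count (CV 8.91%, against 2.51% from counting error) and Naaa 3.34 to 4.50 (CV 13.5%, against 2.60%). The Xcr1 level itself ranged over 2.34-fold. A CV under that of Naaa was also found for 9 of 147 genes of the other lists, such as Tlr11 (6.69%), H2-Ab1 (10.7%), Elane (10.8%) and Ccr2 (13.1%), so that a low CV was not particular to these genes.

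The other 6 genes varied more against Xcr1. The CV was 22.3% for Batf3, 23.2% for Id2 and for Cadm1, 25.2% for Wdfy4, 30.6% for Zbtb46 and 31.4% for Itgae, against 2.59% to 6.98% from counting error. For 20 other regulators of dendritic fate, none of them called in MPP3 cells, this CV was 22.2% (Batf2) to 118% (Irf4). Zbtb46 had 0.473, 0.589, 0.541 and 0.265 counts per Xcr1 count in replicates 1 to 4, and Itgae 0.145, 0.150, 0.161 and 0.0702. For both, replicate 4 stood apart from the other 3. Id2 had 3.22, 3.59 and 3.49 counts per Xcr1 count in replicates 1 to 3, and 5.20 in replicate 4. On the log2 scale, 7 of the 10 genes spread less relative to the geometric mean of the 10 than in level, the exceptions being Wdfy4, Zbtb46 and Itgae. Each gene is part of that mean, so that some loss of spread is built in.

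**Figure D2:**
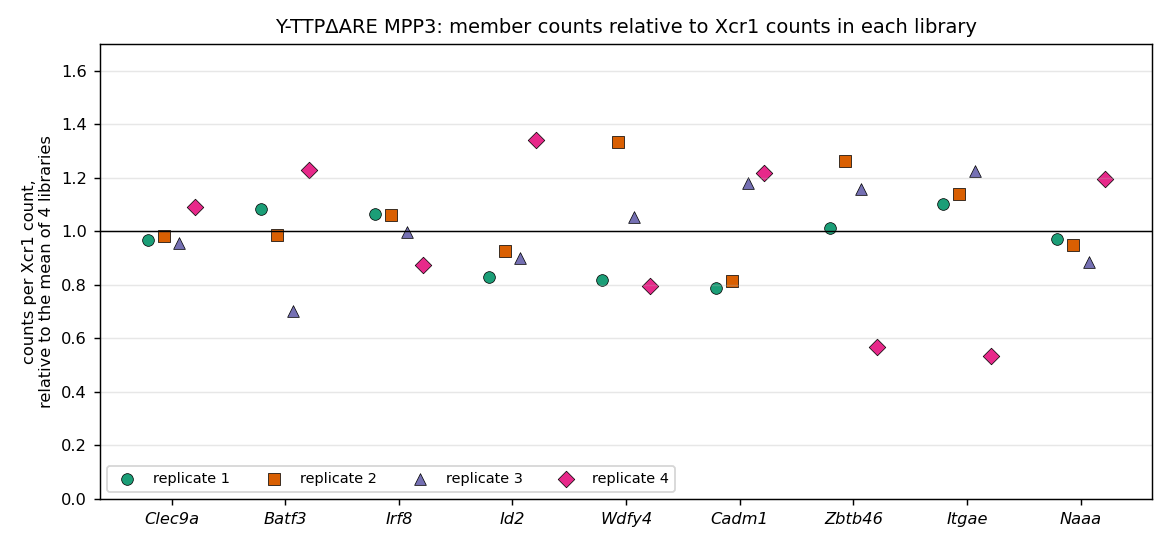
Counts of 9 genes per Xcr1 count in each of the 4 Y-TTPΔARE MPP3 libraries, divided by the mean ratio of the gene. Clec9a and Irf8 stay near 1 in every library, while replicate 4 lies lowest for Zbtb46 and Itgae and highest for Id2.

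The proportions differed between groups. Summed over libraries, Irf8 had 25.3 counts per Xcr1 count in Y-WT MPP3 and 5.30 in Y-TTPΔARE MPP3, and Wdfy4 had 105 and 2.82. Clec9a had 0.759 and 0.447 counts per Xcr1 count in these groups, and Batf3 0.267 and 0.228. In young HSCs, Clec9a had 6.05 (Y-WT) and 4.95 (Y-TTPΔARE) counts per Xcr1 count. These ratios rest on 195 Xcr1 counts in Y-WT MPP3 and on 76 and 105 in the young HSC groups, against 7908 in Y-TTPΔARE MPP3.

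Deviations of the log2 levels from the group mean give a further description. Over the 45 pairs of genes, the median correlation of these deviations was 0.87 (-0.03 to 1.00) over the 4 Y-TTPΔARE MPP3 libraries and 0.46 (-0.80 to 0.97) over the 4 Y-WT MPP3 libraries. Over the 16 HSC libraries it was 0.04 (-0.67 to 0.81). The genes of a library share its scaling factor and depth, and no test was made. Counts of some genes were low outside Y-TTPΔARE MPP3. In Y-WT MPP3, Batf3 had 2 to 28 and Clec9a 23 to 54 counts per library, beside 289 to 619 and 605 to 1096 in Y-TTPΔARE MPP3. The part of counting error in these differences was not tested.

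Other genes of dendritic cells were followed from lists written with earlier results of these data known. Of 20 further genes associated with type 1 dendritic cells, 13 were called higher in Y-TTPΔARE MPP3 and none lower (background 2.33% higher), also with replicate 4 left out, with a median log2 fold change of 2.77 over the 20. The largest were Gpr33 (6.17 ± 0.58), the interferon-inducible Ifi205 (5.51 ± 0.38), the chemokine Cxcl9 (4.81 ± 0.35) and Tlr11 (4.51 ± 0.50), a receptor for microbial profilin. Tlr3, a sensor of double-stranded RNA, went from 3.52 ± 1.80 to 57.2 ± 12.6 CPM. Of 10 MHC class II genes, 9 were called higher, led by H2-Eb1 (4.12 ± 0.26), H2-Aa (3.65 ± 0.24), H2-Ab1 (3.47 ± 0.20) and the invariant chain Cd74 (3.24 ± 0.36).

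Of 12 pan-dendritic and growth factor genes, 7 were called higher, 6 with replicate 4 left out. They were led by the integrin chain Itgax (CD11c, 3.38 ± 0.44), Cd40 (3.28 ± 0.49), the class II transactivator Ciita (2.96 ± 0.18) and Cd83 (2.66 ± 0.56). None of 20 regulators of dendritic fate outside the 10 genes, 16 of them over the limit on level, was called in edgeR's quasi-likelihood test. Among them the most abundant, Etv6 and Tcf3, had log2 fold changes of -0.25 and -0.31. The median of that list was 0.19.

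**Figure D3:**
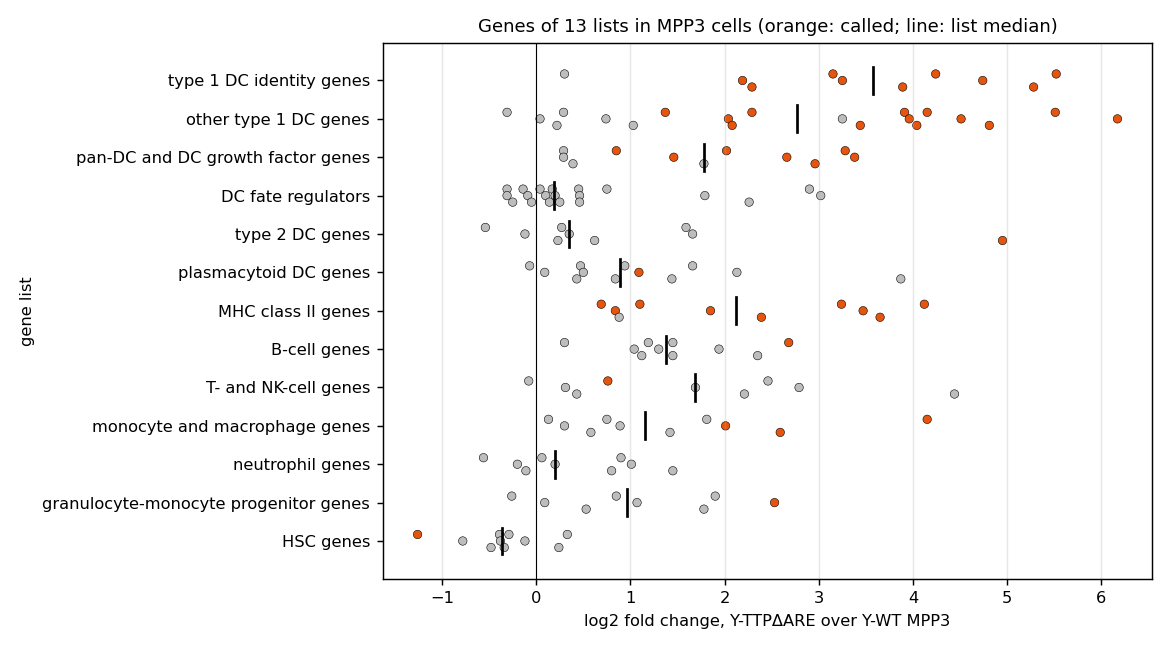
Log2 fold change of Y-TTPΔARE over Y-WT MPP3 for every tested gene of 13 lists, with called genes in orange and a line at each list's median. The medians are 3.57 for the type 1 dendritic cell identity genes, 2.77 for other type 1 genes and 2.12 for MHC class II genes, and 0.19 for regulators of dendritic fate. They are 1.78 for pan-dendritic, 1.69 for T- and NK-cell, 1.37 for B-cell, 1.15 for monocyte and macrophage and 0.96 for granulocyte-monocyte progenitor genes. The plasmacytoid, type 2, neutrophil and HSC medians are 0.89, 0.35, 0.20 and -0.36.

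Markers of other cell types moved less uniformly in the same libraries. Only genes over the limit on level can be called. These were 18 of the 20 further type 1 genes, 9 of the 10 MHC class II genes and 10 of the 12 pan-dendritic genes. Among other cell types they were 7 of 10 type 2, 7 of 14 plasmacytoid and 8 of 10 monocyte and macrophage genes. B-cell genes held 6 of 10, T- and NK-cell genes 3 of 12 and neutrophil genes 6 of 10. Granulocyte-monocyte progenitor genes held 7 of 9 and HSC genes 8 of 10. Of 10 type 2 dendritic genes, Cd209a alone was called higher (4.95 ± 0.69), and the list summed to 269 to 320 CPM in Y-WT and 336 to 376 CPM in Y-TTPΔARE. Of 14 plasmacytoid genes, Irf7 alone was called (1.09 ± 0.16), and the defining Siglech was at 0.714 to 1.80 CPM in Y-TTPΔARE. That list had a median log2 fold change of 0.89 and summed to 146 to 241 CPM in Y-WT and 228 to 334 CPM in Y-TTPΔARE, with Ccr9, a chemokine receptor, at 3.84 ± 3.24 and 16.5 ± 7.12 CPM (SD, n = 4 each). Of 10 monocyte and macrophage genes, 3 were called higher, Ccr2 (4.15 ± 0.24), Adgre1 (2.59 ± 0.32) and Fcgr1 (2.01 ± 0.35), and the list summed to 455 to 792 CPM in Y-WT and 807 to 1480 CPM in Y-TTPΔARE.

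Of 10 B-cell genes, Cd22 was called higher (2.68 ± 0.31) but not with replicate 4 left out, with list sums of 47.0 to 148 and 75.7 to 179 CPM. Of 12 T- and NK-cell genes, Lck was called higher (0.76 ± 0.12), with sums of 242 to 346 and 272 to 646 CPM and Cd3e at 0.0428 to 2.56 CPM in Y-TTPΔARE. Nkg7 alone was at 188 to 564 CPM in Y-TTPΔARE. Of 10 neutrophil genes none was called, with the most abundant, Csf3r and S100a9, at -0.56 ± 0.18 and 1.01 ± 0.97 and with sums of 202 to 407 and 170 to 324 CPM. Elane, a granule protease, was the gene called higher among 9 granulocyte-monocyte progenitor genes (2.53 ± 0.34), and Tek was the gene called lower among 10 HSC genes (-1.26 ± 0.18). Median log2 fold changes were 1.69 for T- and NK-cell, 1.37 for B-cell, 1.15 for monocyte and macrophage and 0.96 for granulocyte-monocyte progenitor genes. They were 0.35 for type 2, 0.20 for neutrophil and -0.36 for HSC genes. The part of other cell types in the MPP3 values was not tested.

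In young HSCs, none of the 10 genes was called between Y-TTPΔARE and Y-WT by edgeR's quasi-likelihood test, nor by DESeq2 or the likelihood ratio test. All 10 passed the filter on low counts and 7 the limit on level, and 0.0435% of 13782 genes were called, 0.0218% in each direction. The study stated the same limits in edgeR, called more genes in this comparison and listed Id2 among those significantly changed. The source of that difference was not tested. Without adjustment, 2 of the 10 had a p under 0.05 in edgeR, Id2 and Naaa, as had 7.38% of all 24381 genes tested. Xcr1 was at 0.609 ± 0.347 CPM in Y-WT and 0.774 ± 0.300 CPM in Y-TTPΔARE (SD, n = 4 each), and Batf3 at 0.376 ± 0.285 and 0.443 ± 0.231 CPM, so that both were near the limit of detection in HSCs of either genotype.

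Id2 was at 65.5, 24.9, 34.5 and 40.0 CPM in Y-WT HSCs and at 111, 93.6, 56.6 and 55.3 CPM in Y-TTPΔARE HSCs. Replicates 1 and 2 of Y-TTPΔARE were above all Y-WT libraries and the other 2 were within their range. The log2 fold change was 0.90 ± 0.31 (adjusted p = 0.473 in edgeR's quasi-likelihood test, 0.106 to 0.933 over the alternatives). Naaa was at 8.81 ± 1.94 and 11.7 ± 1.48 CPM, with a log2 fold change of 0.36 ± 0.16 (adjusted p = 0.668 in the same edgeR test). Of 134 genes tested from the other 12 lists, edgeR's quasi-likelihood test called 0 in young HSCs, and 36 had an unadjusted p under 0.05, beside 7.38% of all genes tested.

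The 2 libraries with high Id2 also held the most Cd3e, a subunit of the T-cell receptor complex, with 25.6 CPM each, beside 2.68 to 11.7 CPM in the other young HSC libraries. Cd3e did not overlap between the genotypes, at 2.68 to 7.83 CPM in Y-WT and 8.41 to 25.6 CPM in Y-TTPΔARE. Over the 8 young HSC libraries of both genotypes, Pearson r of Id2 and Cd3e was 0.95 and Spearman rho 0.88. These values thus include the difference between genotypes. Without the 2 libraries farthest from the median Cd3e level r was 0.87, and over the 8 middle-aged HSC libraries it was 0.41. Cd3e was chosen after its values had been seen, so that these are a description. Its part in the Id2 difference was not tested.

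**Figure D4:**
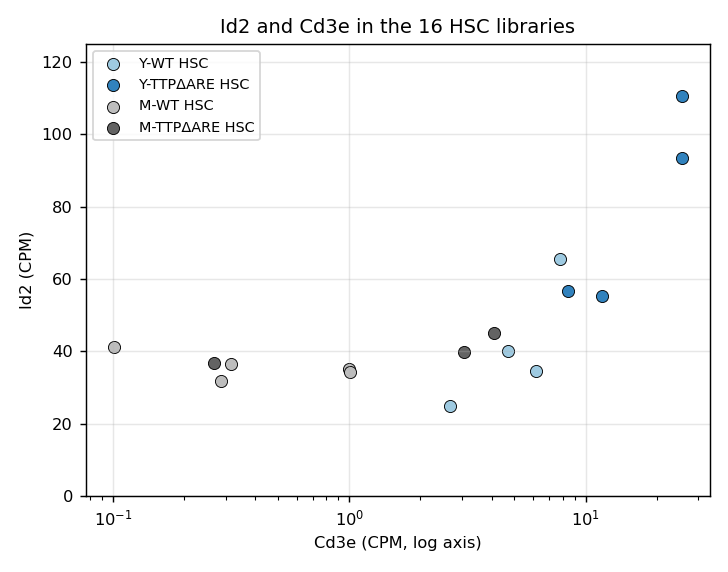
Id2 against Cd3e, both in CPM and Cd3e on a log axis, in the 16 HSC libraries colored by group. The 2 Y-TTPΔARE libraries with 25.6 CPM of Cd3e have the highest Id2, at 111 and 93.6 CPM.

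In middle-aged HSCs, 8 of the 10 genes passed the filter on low counts, and Zbtb46 was called higher in M-TTPΔARE, where 2.22% of 13413 genes were called, and 1.1% were called higher. Zbtb46 was at 9.49, 9.83, 8.63, 10.2 and 8.43 CPM in M-WT and at 13.6, 14.3 and 12.4 CPM in M-TTPΔARE. The groups did not overlap, and the log2 fold change was 0.48 ± 0.10 (adjusted p = 0.0437 in edgeR's quasi-likelihood test). The call was lost with each of the 8 libraries left out in turn (adjusted p 0.0525 to 0.165) and with the likelihood ratio test (adjusted p = 0.104), whereas DESeq2 gave an adjusted p of 0.0022.

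Clec9a likewise showed no overlap, at 6.48, 7.85, 7.18, 8.23 and 9.08 CPM in M-WT and 10.6, 12.9 and 10.7 CPM in M-TTPΔARE. Its log2 fold change of 0.51 ± 0.13 did not pass in edgeR's quasi-likelihood test (adjusted p = 0.0814) and passed in DESeq2 (adjusted p = 0.0136). The study listed Clec9a as significantly changed in this comparison. Groups without overlap and higher in M-TTPΔARE were found for 5.74% of genes, and lower for 7.78%. Wdfy4 was at 79.6 ± 8.92 CPM in M-WT (SD, n = 5) and 68.3 ± 9.90 CPM in M-TTPΔARE (SD, n = 3). Its log2 fold change was -0.27 ± 0.11 (adjusted p = 0.257 in the same edgeR test). Irf8, Id2, Cadm1, Itgae and Naaa had log2 fold changes from -0.03 to 0.39 and overlapping groups. Xcr1 had 18 counts over the 5 M-WT libraries and 10 over the 3 M-TTPΔARE libraries, Batf3 8 and 9, and neither was tested. Of the other lists, Cd24a (0.47 ± 0.06) among the further type 1 genes, the repressor Gfi1 (0.61 ± 0.09) among fate regulators and Procr (0.38 ± 0.06) among HSC genes were called higher, and Csf3r (-0.82 ± 0.12) and Cd34 (-0.74 ± 0.09) lower, in edgeR's quasi-likelihood test.

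Between ages, M-WT and Y-WT HSCs were compared to see where the 10 genes stood without the TTPΔARE allele. Of 9 genes that passed the filter, 4 were called, 2 in each direction, where 19.7% of 13647 genes were called, 13.7% higher and 6.02% lower in M-WT. Age and the set of sample numbers cannot be told apart. Clec9a was at 3.93, 2.55, 2.52 and 4.92 CPM in Y-WT, under all 5 M-WT libraries, with a log2 fold change of 1.15 ± 0.20 (adjusted p = 0.00415 in edgeR's quasi-likelihood test). Wdfy4 was at 43.1, 58.8, 54.6 and 62.8 CPM in Y-WT and 84.3, 70.7, 71.5, 79.8 and 91.9 CPM in M-WT, a log2 fold change of 0.53 ± 0.12 (adjusted p = 0.0146 in the same test).

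Irf8 moved the other way, from 18.6, 11.7, 14.0 and 22.6 CPM in Y-WT to 9.30, 9.29, 6.95, 10.4 and 8.67 CPM in M-WT. The groups did not overlap, which held for 5.49% of genes lower in M-WT, and the log2 fold change was -0.92 ± 0.18 (adjusted p = 0.00665 in edgeR's quasi-likelihood test). Zbtb46 was at 22.5, 10.2, 12.6 and 23.1 CPM in Y-WT, the lowest of them level with the highest M-WT library. Its log2 fold change was -0.88 ± 0.22 (adjusted p = 0.0183 in edgeR), and the call was lost without Y-WT replicate 4 (adjusted p = 0.0538). Cadm1 was not called (-0.71 ± 0.27, adjusted p = 0.0861 in edgeR) but was without Y-WT replicate 1 (-0.91, adjusted p = 0.00797). Xcr1, with 76 counts in Y-WT and 18 in M-WT, had a log2 fold change of -2.66 ± 1.10 (adjusted p = 0.104 in edgeR).

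Other lists moved between the same libraries. Of 12 pan-dendritic and growth factor genes 4 were called lower, and of 20 further type 1 genes 1 higher (Ly75, 0.67 ± 0.11) and 2 lower (Cd36, -3.02 ± 0.57, and Clnk, -1.16 ± 0.28). Cd3g (-3.86 ± 0.47) and Cd3e (-3.31 ± 0.57) were lower in M-WT, as were the growth factor receptor Flt3 (-1.16 ± 0.13) and Cd48 (-2.32 ± 0.25), while 6 of 10 HSC genes were higher, with Fgd5 at 0.90 ± 0.11. Each of these was called in edgeR's quasi-likelihood test. Their part in the differences of the 10 genes was not tested.

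The effect of TTPΔARE was compared between ages by an interaction term over the 16 HSC libraries. Calls on this term were made without the fold limit. In edgeR's quasi-likelihood test none of the 10 genes was called, nor in DESeq2 or the likelihood ratio test, and the quasi-likelihood test called 0.0439% of 13664 genes, 0.00732% with a higher and 0.0366% with a lower effect in middle age. Without adjustment, 5 of the 10 had a p under 0.05, as had 15.0% of all 28189 genes tested, with Zbtb46 (0.89 ± 0.31, adjusted p = 0.271) and Cadm1 (0.96 ± 0.40, adjusted p = 0.295) having a positive difference, that is a higher fold change in middle age (edgeR). Wdfy4 (-0.45 ± 0.17), Id2 (-0.82 ± 0.37) and Naaa (-0.44 ± 0.20) had the opposite sign. The median over all genes was -0.11.

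**Figure D5:**
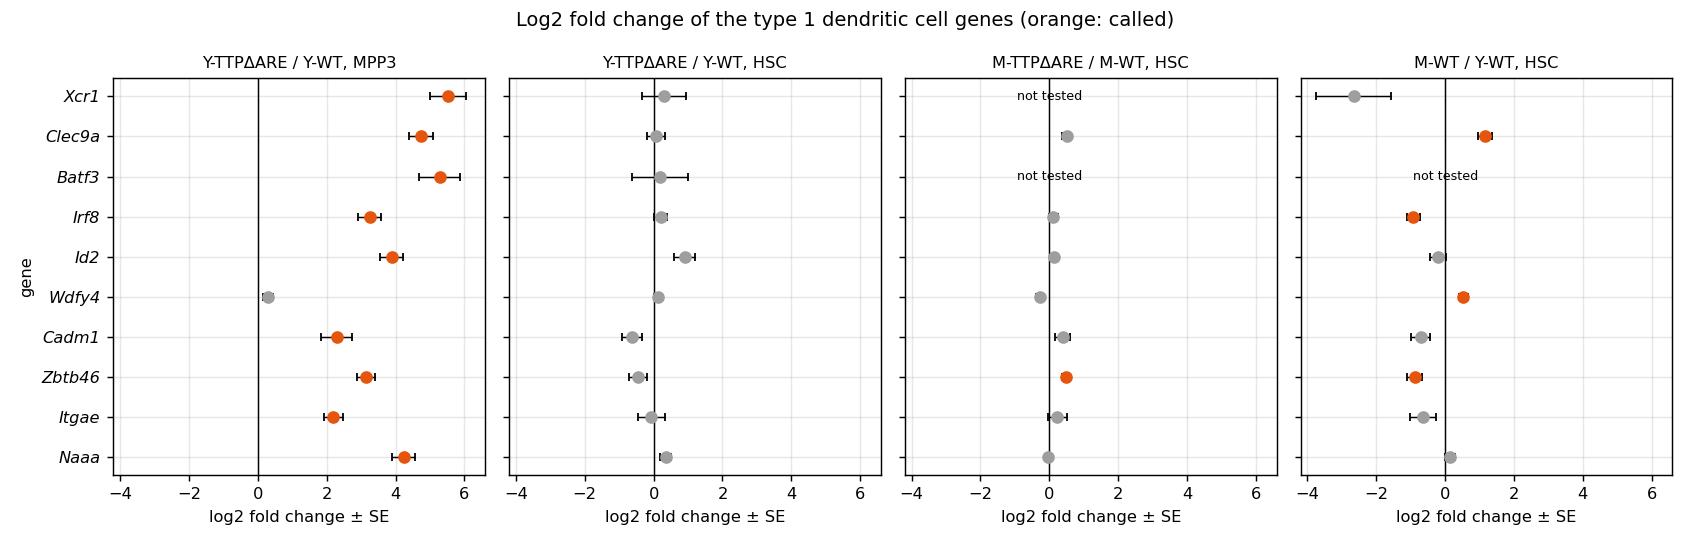
Log2 fold change with its standard error for each of the 10 genes in MPP3 cells, young HSCs, middle-aged HSCs and between ages of WT HSCs, with called genes in orange. In MPP3 cells 9 genes are called, between 2.19 and 5.52, in young HSCs none and in middle-aged HSCs Zbtb46.

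Across groups, Y-TTPΔARE MPP3 had the highest mean of each of the 10 genes, and for all but Wdfy4 the range of its libraries lay above those of the other 5 groups. The genes were picked as higher in that group, so that its first place is a description only. Below Y-TTPΔARE MPP3 the order differed by gene. Xcr1 and Batf3 were lowest in middle-aged HSCs, with neighboring groups overlapping throughout. Clec9a, Id2 and Zbtb46 were lowest in Y-WT MPP3, without overlap with the next group. For Clec9a the order then rose from young to middle-aged HSCs, and M-WT and M-TTPΔARE did not overlap. Irf8 and Wdfy4 had Y-WT MPP3 as the group next to the highest, above all HSC groups without overlap.

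HSC libraries differed in their counts for 1752 olfactory, vomeronasal and trace amine receptor genes, which marrow cells are not known to use. These summed to 57.9 CPM in Y-WT HSC replicate 1 and 574 to 942 CPM in replicates 2 to 4, and to 37.3 to 199.5 CPM in M-WT. Over the 8 young HSC libraries, r of Itgae with this sum was 0.91 and rho 0.81, with r = 0.70 without the 2 farthest libraries. Over the 8 middle-aged libraries r was 0.78. For Id2 in young HSCs, r with this sum was -0.75, rho -0.90 and r without the 2 farthest libraries -0.87. Over the 8 middle-aged libraries r of Id2 was 0.53. Itgae was at 0.891 CPM in Y-WT HSC replicate 1 and at 2.54 to 3.18 CPM in the other Y-WT HSC libraries.

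For Zbtb46 in middle-aged HSCs r with the same sum was 0.73 and for Clec9a 0.64. These are among 20 such values computed at each age over both genotypes. The receptor genes were chosen after values had been seen, so that the correlations are a description, and their part in the differences was not tested.

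The genes whose levels followed the set most closely were taken by correlation over all 24 libraries with the mean of the standardized log2 CPM of Xcr1, Clec9a, Irf8, Wdfy4 and Naaa, among 12800 genes. They were Plbd1 (r = 0.972), Cst3 (0.971), Gpr33 (0.968), Irf5 (0.964), Ppfia4 (0.963), H2-Ab1 (0.959), Psap (0.958), Pld4 (0.955), Ppm1m (0.945) and Olfm1 (0.945). The genes of a library share its scaling factor and depth, the libraries fall into groups, and the values describe these libraries. Plbd1, a phospholipase-like protein, went from 14.7 ± 10.1 CPM in Y-WT MPP3 to 356 ± 114 CPM in Y-TTPΔARE MPP3 (SD, n = 4 each) and stayed between 4.66 and 12.5 CPM in HSCs. Cst3, the secreted protease inhibitor cystatin C, went from 263 ± 19.5 to 1765 ± 1015 CPM, with HSC libraries between 187 and 277 CPM.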

How the data were processed

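Bulk mRNA-seq of 24 mouse libraries was used. Per the labels and the study's methods, the authors trimmed reads with Cutadapt, aligned them to mm10 with STAR and deposited raw counts per gene symbol from featureCounts. Strand and multimapping settings are not given in the sources used here. The labels and the methods name different library kits. The study used 3 of the 4 Y-TTPΔARE MPP3 libraries without naming them, and all 4 were used here.

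The 10 genes and the other lists were chosen with earlier results of these data known. Groups came from the sample titles. Counts were filtered with filterByExpr (minimum count 10, minimum total 15), scaled by TMM and tested with the quasi-likelihood F test of edgeR 4.0.16 in R 4.3.3, with Benjamini-Hochberg adjustment over all genes tested. Standard errors of log2 fold changes come from the F statistic. CPM use TMM factors over all 24 libraries. Correlations over libraries are given as a description. Alternatives were DESeq2 1.42.0, the likelihood ratio test, RLE factors, no filter, no level limit, a fold limit of 2, a replicate block, each library left out and, added after seeing the data, library totals without factors and list counts without Y-TTPΔARE MPP3 replicate 4. The tests were tested on simulated counts. No library pair of a group was a duplicate, the lowest reduced chi-square of 37 pairs being 18.24.

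Named genes were the 10, Zfp36, up to 4 called genes of each list with the largest change (without a call, the 2 most abundant), and the 10 most alike genes. Tlr3, Siglech, Cd3e, Nkg7, Lyz2 and, between ages, the genes named from other lists were chosen after their values were seen. Gene positions, exon lengths and 3′ UTRs were read from GENCODE M21 (GRCm38), whereas the authors counted on a later release.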

Additional observations from a re-analysis of the deposited data

Results flagged for a closer look

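In 2 of 50 groups of 4 or 5 libraries, 1 library stood far from the others of its group for 1 of the 10 genes, where chance marks about 1 in 20 groups. Xcr1 was at 0.393 CPM in M-WT HSC replicate 4, beside 0 to 0.0505 CPM in the other 4 libraries. Irf8 was at 15.7 CPM in Y-TTPΔARE HSC replicate 4, beside 20.9 to 21.6 CPM in the other 3.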

How the results depend on the processing

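In young HSCs and the interaction none of the 10 genes was called under any alternative run. In MPP3 cells 8 or 9 were, which is no sign of stability since the genes were picked on that contrast. In middle-aged HSCs the count of 1 became 2 with DESeq2, and 0 with a fold limit of 2, the likelihood ratio test, no filter, the replicate block and each library left out (0 to 0). Between ages a fold limit of 2 left 1 of 4, and leaving out libraries gave 3 to 5. Across genes, deviations from the group mean correlated at -0.09 to 0.27 between same-number libraries and at -0.21 to 0.29 between others. The value of 0.27 was that of replicate 1 in young HSCs, the highest of that comparison. Both of these libraries had low sums of receptor genes, 57.9 and 72.3 CPM, beside 324 to 942 CPM in the other young HSC libraries. Whether same-number libraries share a batch was not tested. The replicate block gave 0 calls in young HSCs, 0 in middle-aged HSCs (Zbtb46 0.48, adjusted p = 0.15 in edgeR) and 9 in MPP3 cells.

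Small values changed sign, and the cause was not tested. In young HSCs Itgae (-0.07) was 0.02 without a filter, 0.04 with the block and -0.27 to 0.18 with libraries left out, Batf3 -0.21 to 0.60 and Clec9a -0.04 to 0.32. Id2 between ages ran from -0.39 to 0.13. In the interaction, Xcr1 ran from -5.11 to 1.43, Batf3 from -0.79 to 2.16 and Irf8 from -0.33 to 0.00. Xcr1 and Batf3 in HSCs rest on few counts. Over all genes, RLE factors moved the interaction median from -0.11 to -0.05, and no filter moved that between ages from 0.06 to 0.15. Called genes in young HSCs numbered 6 in the quasi-likelihood test and 304 in DESeq2.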
